A study of Mus musculus with 48 samples.

Results

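Imprinted genes were followed in mouse striatal progenitor cells, with Peg10 as the leading gene. 10 imprinted genes were listed by symbol, Peg10, Sgce, Peg3, Mest, H19, Igf2, Meg3, Dlk1, Plagl1 and Cdkn1c, so that the list held 10 of the 18178 genes with a symbol in a table of 27281 rows. The list was built around Peg10 because its level was lower under Group A and Group B than in vehicle, and the comparisons with that vehicle are therefore given for Peg10 as a description without a test. The symbol column held 9 of the 10 genes, and the H19 row was found by its identifier, ENSMUSG00000000031.

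RNA was sequenced from 48 samples in 16 conditions, 3 samples each, after 24 h in serum-free medium. The STHdhQ7 line is wild type and the STHdhQ111 line is a homozygous knock-in of the expanded huntingtin repeat, each a single conditionally immortalised line, and both received vehicle (DMSO). STHdhQ111 cells alone received the 14 compounds. Group A held cyproheptadine and loxapine at 10 µM and pizotifen at 5 µM, Group B held diacylglycerol kinase inhibitor II and meclizine at 10 µM, trichostatin A was given at 10 nM and sodium butyrate at 1 mM, and 4-deoxypyridoxine at 4 mM, cysteamine at 250 µM, selisistat at 10 µM, fingolimod phosphate at 250 nM, nortriptyline at 1 nM and haloperidol and nicotinamide at 0.5 nM completed the set. Values are the deposited normalised abundances on a log2 scale, so a difference of −1 is a fall to 50% of the reference. Nothing in the labels said that the 3 samples of a condition came from separate cultures. A limma p-value here sets a difference against 1 spread per gene, pooled over the samples of all 16 conditions. It does not use the spread of the compared conditions alone.

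Samples were collected on 3 days at 3 times a day, and day was a term of the fit. Vehicle shared all its slots with selisistat and STHdhQ7 vehicle, and some of them with 2 of the 3 samples of cyproheptadine and of diacylglycerol kinase inhibitor II, whose first samples are both labelled day 3. The other Group A and B compounds, trichostatin A, sodium butyrate, 4-deoxypyridoxine and cysteamine were therefore also set against 2 compounds from their own slots. These were haloperidol with fingolimod phosphate or nicotinamide with nortriptyline, all at nanomolar doses. These reference compounds were picked with their small earlier counts of changed genes known. Trichostatin A, also at a nanomolar dose, was not used as a reference. The depth of the libraries is unknown because no counts were used here. Selisistat replicate 2, STHdhQ7 vehicle replicate 1 and diacylglycerol kinase inhibitor II replicate 1 lay farthest from their own conditions, at a root mean square distance of 0.217, 0.208 and 0.157 log2 units against a median of 0.116. Of 11 neural and striatal progenitor markers, 8 passed the minimum mean, from Ppp1r1b at a mean of 1.93 to Foxp1 at 9.88 and Vim at 15.42, while Bcl11b lay under the minimum and Gsx2 was not analysed here. Of 7 mesenchymal markers 5 passed, from Dcn at 7.44 to Col1a1 at 14.52, with Lum and Thy1 at −0.38 and −0.17.

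Imprinted genes are expressed mainly from the copy inherited from 1 parent, and the choice is carried by DNA methylation set in the germ line at imprinting control regions. Many lie in clusters in which neighbouring genes share a control region, and Peg10 and Sgce are such a pair, both expressed from the paternal copy. Peg10 is a gene derived from a retrotransposon that is needed for the placenta, and several others on the list act on growth in the embryo.

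Peg10 (ENSMUSG00000092035) lies at chr6:4747306-4760517 on the plus strand of GRCm38, and Sgce, which encodes epsilon-sarcoglycan of the dystrophin-associated complex, lies at chr6:4674350-4747207 on the minus strand. The annotated genes point away from each other and 98 bases separate them. RefSeq promoters on GRCm38.p6 were at hand for 6 of the 10 genes. The 250 bases before a start are shown for Plagl1, Igf2 and Mest, because these are the genes with a promoter at hand that moved with trichostatin A and sodium butyrate. Capitals mark CG, the pair of bases that carries the methylation of imprinting, and CG reads the same on both strands. The median over 32851 promoters was 6 CG in 250 bases. The Plagl1 stretch, chr10:13090582-13090831 on the plus strand, held 19, and 19.7% of promoters held at least as many. The Igf2 stretch before the third listed start, chr7:142658805-142659054 on the minus strand, held 22 with a share of 14.8%, while the stretches before the other 3 listed starts held 1, 10 and 6 (shares of 92.1%, 37.8% and 50.4%). The Mest stretch before the second listed start, chr6:30737800-30738049 on the plus strand, held 14 with a share of 29.4%, and that before its first held 7 (46.3%). For Igf2 and Mest the start richest in CG is shown. Methylation itself was not measured.
Plagl1: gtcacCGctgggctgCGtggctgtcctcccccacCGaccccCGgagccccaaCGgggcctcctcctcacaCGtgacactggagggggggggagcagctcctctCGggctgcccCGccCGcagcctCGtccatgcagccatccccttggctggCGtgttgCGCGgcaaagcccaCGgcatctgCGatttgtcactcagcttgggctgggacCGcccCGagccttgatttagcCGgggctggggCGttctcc
Igf2: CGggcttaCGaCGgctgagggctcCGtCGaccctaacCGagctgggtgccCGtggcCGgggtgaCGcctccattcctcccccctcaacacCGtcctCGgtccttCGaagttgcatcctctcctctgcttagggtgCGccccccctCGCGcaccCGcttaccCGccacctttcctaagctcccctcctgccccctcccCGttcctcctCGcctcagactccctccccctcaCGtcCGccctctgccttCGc
Mest: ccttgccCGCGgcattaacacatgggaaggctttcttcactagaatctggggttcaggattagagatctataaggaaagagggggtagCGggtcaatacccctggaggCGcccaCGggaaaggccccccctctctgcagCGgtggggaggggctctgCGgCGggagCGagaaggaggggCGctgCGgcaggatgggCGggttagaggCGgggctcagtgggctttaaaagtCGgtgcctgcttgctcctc

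Peg10 was lowest under cyproheptadine and diacylglycerol kinase inhibitor II. In STHdhQ111 vehicle its 3 samples read 12.46, 12.07 and 12.14, and in STHdhQ7 vehicle 11.18, 11.65 and 11.60. Cyproheptadine gave 10.39, 10.74 and 10.33, and diacylglycerol kinase inhibitor II gave 9.99, 10.96 and 10.77. Every one of these compound samples lay below every sample of both vehicles, and diacylglycerol kinase inhibitor II had the widest spread of any condition for Peg10 (SD 0.51, n = 3). Loxapine gave 11.40, 11.40 and 11.44, meclizine 11.33, 11.17 and 11.30, and pizotifen 11.38, 11.48 and 11.49. Trichostatin A gave 11.23, 11.15 and 11.39. These 4 compounds stood below the STHdhQ111 vehicle range and within, or close to, the range of STHdhQ7 vehicle.

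From high to low, mean Peg10 was 12.50 ± 0.04 in nortriptyline, 12.37 ± 0.08 in nicotinamide, 12.30 ± 0.11 in haloperidol, 12.29 ± 0.04 in fingolimod phosphate and 12.27 ± 0.10 in cysteamine (SD, n = 3 here and below). STHdhQ111 vehicle (12.23 ± 0.21), selisistat (12.14 ± 0.35), 4-deoxypyridoxine (11.98 ± 0.14) and sodium butyrate (11.88 ± 0.05) came next. STHdhQ7 vehicle (11.48 ± 0.26), pizotifen (11.45 ± 0.06), loxapine (11.41 ± 0.02), meclizine (11.27 ± 0.09) and trichostatin A (11.25 ± 0.12) followed, and diacylglycerol kinase inhibitor II (10.57 ± 0.51) and cyproheptadine (10.49 ± 0.22) closed the order. Neighbours in this order overlapped in their samples except at the steps from nortriptyline to nicotinamide, from sodium butyrate to STHdhQ7 vehicle, from loxapine to meclizine and from trichostatin A to diacylglycerol kinase inhibitor II.

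In bulk RNA, fewer cells with Peg10 RNA and less of it per cell cannot be told apart. The mean over Group A was 1.11 log2 units below vehicle, or 46.4% of it (9 against 3 samples). The mean over Group B was 1.31 below, or 40.4% (6 against 3 samples). No interval is given, because Peg10 was chosen on these values. Within the 3 collection days the difference ran from −1.23 to −0.86 for Group A and from −1.46 to −1.01 for Group B. The days differ in their compounds, since day 1 held no sample of cyproheptadine or diacylglycerol kinase inhibitor II. These ranges are therefore not a repeat of the same mean on each day. They come from the values that chose Peg10, so their shared sign is no further support. Just inside the pattern that chose Peg10 stood pizotifen, at −0.78, and just outside it, among compounds that belong to neither group, stood trichostatin A at −0.97 and sodium butyrate at −0.34. Without its first sample diacylglycerol kinase inhibitor II stood at −1.36 in place of −1.65, and without its second at −1.86. Without the 3 libraries that stood apart, Group B read −1.16.

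**Figure D1:**
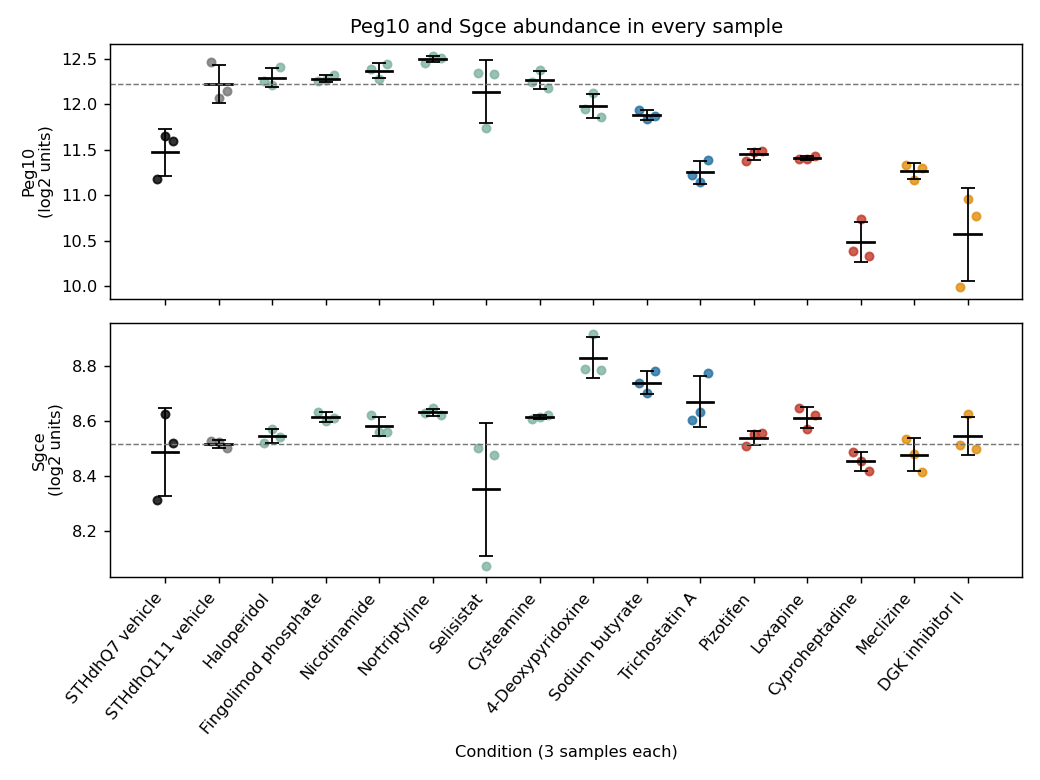
Normalised abundance (log2 units) of Peg10 (upper) and Sgce (lower) in each of 48 samples by condition. Points are samples, bars are the mean ± SD of 3 samples, and the dashed line is the STHdhQ111 vehicle mean. Peg10 differs from that line by −1.74 and −1.65 under cyproheptadine and diacylglycerol kinase inhibitor II, while Sgce stays within 0.07 of it there. DGK inhibitor II is diacylglycerol kinase inhibitor II.

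The low level of Peg10 did not extend to Sgce. Sgce read 8.53, 8.52 and 8.50 in STHdhQ111 vehicle. It read 8.49, 8.46 and 8.42 under cyproheptadine, where Peg10 was lowest, and 8.51, 8.63 and 8.50 under diacylglycerol kinase inhibitor II. The cyproheptadine samples lay just below the vehicle samples and those of diacylglycerol kinase inhibitor II straddled them. For Group A the difference from vehicle was 0.02 (SE 0.057, 95% interval −0.10 to 0.13, limma adjusted p = 0.87), and for Group B it was −0.01 (SE 0.061, −0.13 to 0.11, adjusted p = 0.94). Both intervals stop well short of the Peg10 values of −1.11 and −1.31. Within days, which differ in their compounds, Sgce ran from 0.00 to 0.05 for Group A and from −0.03 to 0.03 for Group B.

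Among the 14 compounds Sgce passed the test against vehicle for 4-deoxypyridoxine and sodium butyrate, and it was higher in both. Under 4-deoxypyridoxine its samples read 8.79, 8.91 and 8.78, all above vehicle, a difference of 0.31 (SE 0.07, adjusted p = 0.0015, higher in 3 of 3 samples). Under sodium butyrate they read 8.74, 8.70 and 8.78, a difference of 0.22 (SE 0.07, adjusted p = 0.012, higher in 3 of 3). Peg10 stood at −0.25 and −0.34 in the same compounds, or at −0.12 and −0.22 without vehicle replicate 1. Against nicotinamide and nortriptyline of their own slots Sgce rose by 0.22 under 4-deoxypyridoxine (adjusted p = 0.014), while sodium butyrate gave 0.13 (adjusted p = 0.092). Without replicate 2 of 4-deoxypyridoxine the first of these was 0.17, with an adjusted p of 0.15. The widest Sgce difference below vehicle was selisistat, at −0.17 (adjusted p = 0.21), where replicate 2 read 8.07 beside 8.50 and 8.48.

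The distance between the neighbours, Peg10 minus Sgce in each sample, was followed across samples. Its size alone says nothing, since the values are not per length, and its change between conditions is the quantity compared. It ran from 3.55 to 3.94 in vehicle. Under cyproheptadine it ran from 1.90 to 2.29 and under diacylglycerol kinase inhibitor II from 1.48 to 2.33, a description because Peg10 was chosen on these compounds. Loxapine (2.75 to 2.83), meclizine (2.69 to 2.88) and pizotifen (2.87 to 2.94) lay between, beside STHdhQ7 vehicle (2.87 to 3.08). In the conditions that did not choose Peg10 this distance was tested by exact two-sided permutation of samples, 5 tests in all. Trichostatin A (2.51 to 2.62) was 1.13 below haloperidol and fingolimod phosphate (3.62 to 3.88, 3 against 6 samples, exact p = 0.0119, Benjamini-Hochberg adjusted p = 0.0149). Sodium butyrate was 0.69 and 4-deoxypyridoxine 0.68 below nicotinamide and nortriptyline, with the same exact p of 0.0119, the smallest that 84 arrangements can give, and the same adjusted p of 0.0149. Cysteamine was 0.18 below (exact p = 0.0238, adjusted p = 0.0238), and its samples overlapped the reference. STHdhQ7 vehicle was 0.78 below the 12 samples of haloperidol, fingolimod phosphate, nicotinamide and nortriptyline (exact p = 0.0022, the smallest of 455 arrangements, adjusted p = 0.011). That last contrast sets vehicle-treated STHdhQ7 cells against compound-treated STHdhQ111 cells of partly other slots.

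Peg10 itself was tested only against these references. It fell under trichostatin A, an inhibitor of histone deacetylases, by 1.04 log2 units against haloperidol and fingolimod phosphate (SE 0.13, limma adjusted p = 5.1e-07, lower in 3 of 3 samples), to 48.7% of their mean. It fell under sodium butyrate, a fatty acid that inhibits the same enzymes, by 0.55 against nicotinamide and nortriptyline (SE 0.13, adjusted p = 0.0013, lower in 3 of 3). It also fell under 4-deoxypyridoxine, a vitamin B6 antagonist, by 0.46 (SE 0.13, adjusted p = 0.021, lower in 3 of 3), and this call was lost without replicate 1 (adjusted p = 0.074) or replicate 3 (0.11) of that compound. Nicotinamide and nortriptyline had the highest Peg10 means of all conditions, 12.37 and 12.50 beside 12.23 in STHdhQ111 vehicle. Against that vehicle sodium butyrate stood at −0.34 and 4-deoxypyridoxine at −0.25, both given without a test. Cysteamine gave −0.17 (adjusted p = 0.79, 95% interval −0.44 to 0.09). STHdhQ7 vehicle was 0.89 below the 4 compounds (SE 0.12, adjusted p = 3.2e-08, lower in 3 of 3). For the compounds that chose it the same references gave −1.03 in meclizine, −0.84 in pizotifen and −1.02 in loxapine, given without a test. The share of all 13409 genes called was 14.4% for trichostatin A, 30.8% for sodium butyrate, 10.6% for 4-deoxypyridoxine, 0.119% for cysteamine and 65.6% for STHdhQ7 vehicle against the 4 compounds.

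Beyond Sgce, 15 genes around Peg10 on chromosome 6 were listed, Sgce among them, and 9 passed the minimum mean. Group A called 4 of these 9, 1 higher and 3 lower, with a median of −0.09 beside 0.001 over all genes, and Group B called 3, 1 higher and 2 lower, with a median of −0.01 beside −0.004. The shares called over all genes were 32.8% and 41%. By compound against vehicle, cyproheptadine called 6 of the 9, pizotifen 2 and loxapine 0, where 35.6%, 17.9% and 21.9% of all genes were called. Diacylglycerol kinase inhibitor II called 3 and meclizine 4, where 42.3% and 26.8% of all genes were called. Col1a2, a chain of type I collagen whose middle lies at −224.1 kb from the Peg10 start, on the Sgce side, fell by 0.34 in Group A (adjusted p = 0.00017) and by 0.54 in Group B (adjusted p = 1.3e-07). Gng11, a G protein gamma subunit, fell by 0.20 and 0.31 (adjusted p = 0.047 and 0.0034), and Pon2, a paraoxonase, rose by 0.25 and 0.28 (adjusted p = 8.9e-05 and 2.2e-05). Casd1, the gene next to Sgce on its far side, fell by 0.17 in Group A (adjusted p = 0.019) and read 0.10 in Group B (adjusted p = 0.23). Trichostatin A against vehicle called 1 of the 9, Pon2, at 0.23 (adjusted p = 0.0068), with 13.1% of all genes called. Against its slot reference it called 0 of the 9, with 14.4% of all genes called. None of the 9 reached the Peg10 difference from vehicle in Group A, Group B or trichostatin A. Col1a2 is also 1 of the mesenchymal markers, whose summed level went from 15.29 in vehicle to 14.44 under diacylglycerol kinase inhibitor II, the lowest of the conditions, with 5 of 7 markers above the minimum and Lum and Thy1 under it, and its part in the Group B values was not tested.

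**Figure D2:**
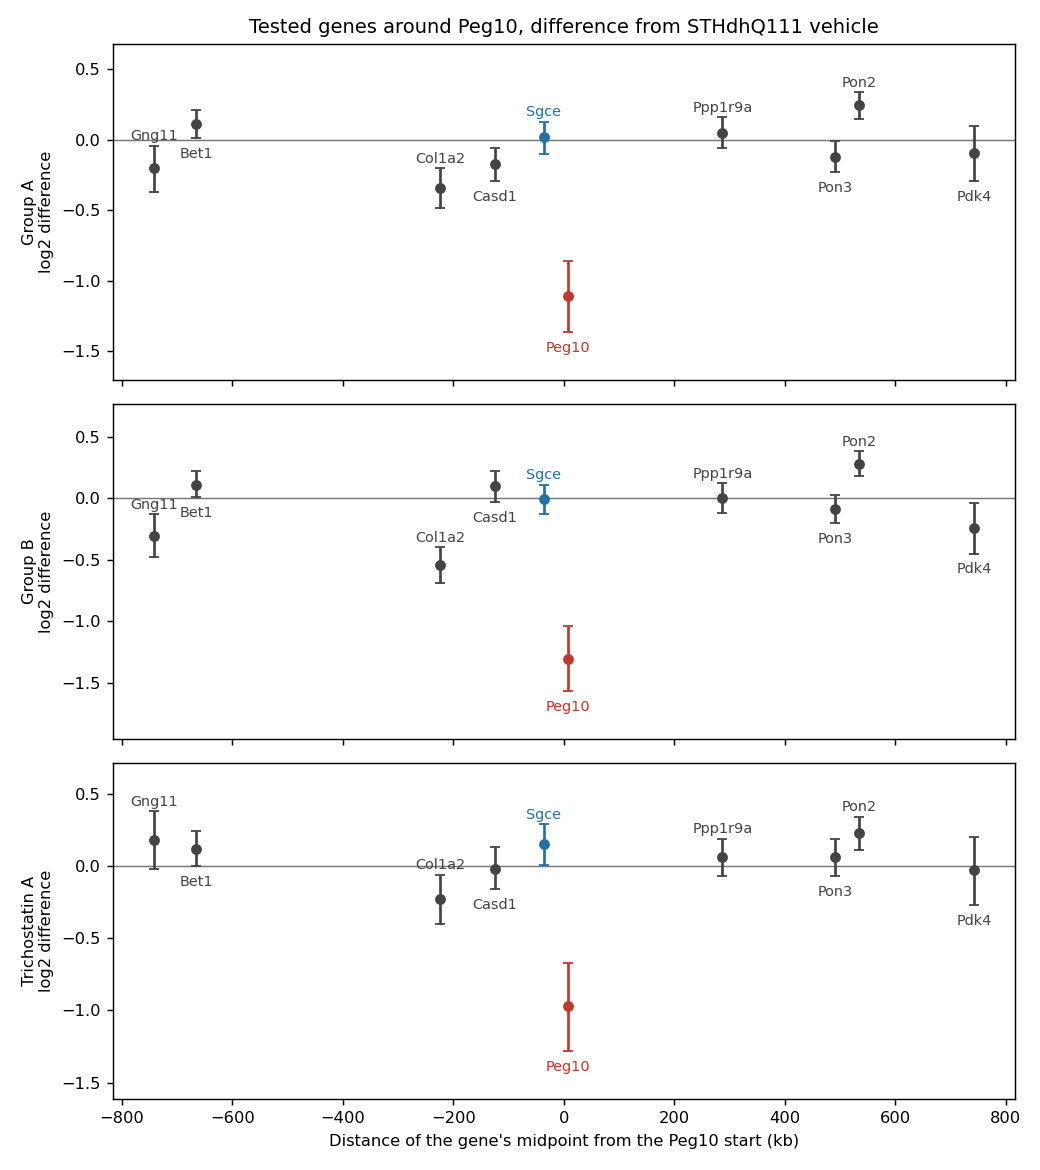
Log2 difference from STHdhQ111 vehicle (vertical) against the distance in kb from the Peg10 start to the middle of each gene (horizontal) for Peg10 and the 9 tested genes around it. Panels are Group A, Group B and trichostatin A, and bars are 95% intervals. The Peg10 bars are no test, because Peg10 was chosen on its values in Groups A and B against this vehicle. Peg10 stands at −1.11, −1.31 and −0.97, and Sgce beside it at 0.02, −0.01 and 0.15.

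Of the 10 imprinted genes, H19 and Dlk1 lay under the minimum mean of 1 in all conditions. H19, a long noncoding RNA expressed from the maternal copy, read −0.92 to −0.77, and Dlk1, a membrane protein of the Notch ligand type, read −1.45 to −1.39. Neither was tested. The remaining 7 besides Peg10 were tested against vehicle. Group A called 3 of 7, Mest and Cdkn1c lower and Plagl1 higher, where 15.6% of all genes were called higher and 17.2% lower. Group B called 2, Mest lower and Plagl1 higher, where the shares were 19.8% and 21.2%. The medians of the 7 were 0.02 and −0.01 beside 0.001 and −0.004 over all genes. Over the 14 compounds 18 of 98 tests passed, beside 17% of the tests over all genes (7.95% higher and 9.05% lower). Single compounds called from 0 to 5 of the 7. Cyproheptadine called 3 (35.6% of all genes), diacylglycerol kinase inhibitor II 2 (42.3%), meclizine 2 (26.8%), and loxapine, pizotifen and 4-deoxypyridoxine 1 each (21.9%, 17.9% and 20.1%). Cysteamine (7.83%), nicotinamide (10.4%), nortriptyline (3.83%), selisistat (0.515%), fingolimod phosphate (0.0597%) and haloperidol (0%) called none of the 7. Mest was called lower in 5 compounds, Plagl1 higher in 6, Igf2 higher in 2, Sgce higher in 2 and Cdkn1c higher in 1 and lower in 2, while Peg3 and Meg3 were called in none.

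**Figure D3:**
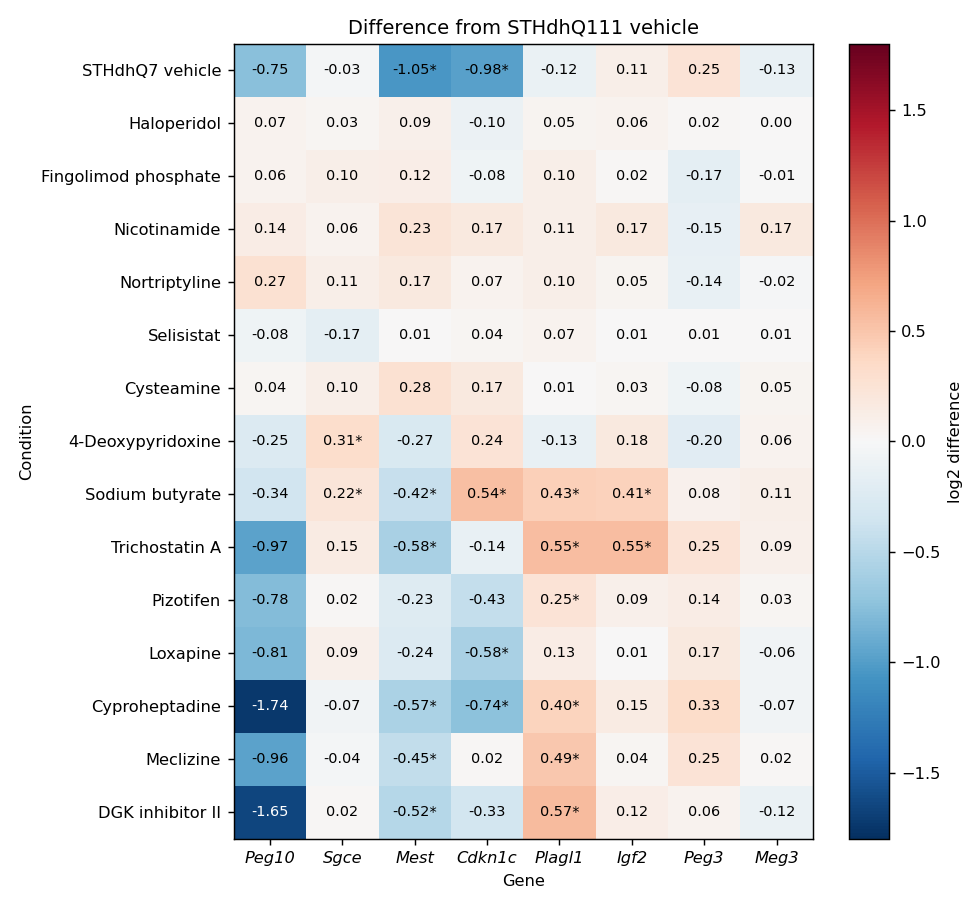
Log2 difference from STHdhQ111 vehicle for the 8 imprinted genes above the minimum mean (columns) in STHdhQ7 vehicle and 14 compounds (rows). Red is higher and blue lower, and an asterisk marks a limma adjusted p under 0.05. Peg10 carries no asterisk because it was not tested here. Mest is blue with an asterisk in 6 rows, STHdhQ7 vehicle included.

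Mest, a hydrolase-like protein expressed from the paternal copy, fell in Group A, in Group B and under both histone deacetylase inhibitors. It read 8.28, 8.24 and 8.37 in STHdhQ111 vehicle and 6.94, 7.60 and 7.19 in STHdhQ7 vehicle. It read 7.95, 7.81 and 7.39 under cyproheptadine, and 7.69, 7.83 and 7.78 under diacylglycerol kinase inhibitor II. All of these samples were below all STHdhQ111 vehicle samples. Against that vehicle Mest fell by 0.35 in Group A (SE 0.089, adjusted p = 0.0026) and by 0.49 in Group B (SE 0.095, adjusted p = 7.3e-05), lower in every sample of both groups. By compound it fell by 0.57 in cyproheptadine (adjusted p = 8.1e-05), 0.52 in diacylglycerol kinase inhibitor II (0.00019), 0.45 in meclizine (0.0019), 0.58 in trichostatin A (0.00038) and 0.42 in sodium butyrate (0.0025). Loxapine and pizotifen gave −0.24 and −0.23 (adjusted p = 0.12 and 0.15). Against the references of their own slots Mest fell in 6 of 7 compounds, by 0.55 in meclizine (adjusted p = 2e-05), 0.33 in pizotifen (0.012), 0.68 in trichostatin A (2.9e-06), 0.44 in loxapine (0.0007), 0.62 in sodium butyrate (3.2e-06) and 0.48 in 4-deoxypyridoxine (0.0011). The pizotifen value was −0.24 with an adjusted p of 0.17 without its replicate 1. All reference compounds had Mest means above the vehicle mean of 8.295, from 8.38 in haloperidol to 8.53 in nicotinamide. Pizotifen, loxapine and 4-deoxypyridoxine passed against these references and not against vehicle. Mest (chr6:30723547-30748465, plus strand) overlaps Copg2 on the other strand, and whether the counting used strand is not given in the sources used here.

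Cdkn1c, an inhibitor of cyclin-dependent kinases expressed from the maternal copy, differed between Group A and Group B. It lies at chr7:143458339-143461050 on the minus strand and overlaps Gm44732 on the other. Its vehicle samples read 7.58, 7.48 and 7.81. Cyproheptadine gave 6.66, 6.91 and 7.05, loxapine 7.31, 6.89 and 6.92, and pizotifen 7.17, 7.20 and 7.22. All Group A samples lay below all vehicle samples, but pizotifen passed neither the test against vehicle nor that against its slot reference. In Group B, meclizine gave 7.46, 7.48 and 7.99, and diacylglycerol kinase inhibitor II gave 6.69, 7.65 and 7.55, so its replicate 1, a library that stood apart, was alone below vehicle by a wide margin. Cdkn1c fell by 0.59 in Group A (SE 0.15, adjusted p = 0.0022), and Group B read −0.15 (SE 0.16, 95% interval −0.47 to 0.17, adjusted p = 0.47). The difference between the groups was −0.43 for A minus B (SE 0.12, adjusted p = 0.003), with 41.3% of all genes called in that comparison, and it was −0.58 without replicate 1 of diacylglycerol kinase inhibitor II. Under sodium butyrate Cdkn1c read 8.23, 8.19 and 8.08, a rise of 0.54 against vehicle (adjusted p = 0.017) and of 0.42 against its slot reference (adjusted p = 0.039). Trichostatin A read −0.14 against vehicle and passed neither test. Cdkn1c also fell in cyproheptadine against vehicle, by 0.74 (adjusted p = 0.0015), and in loxapine against its slot reference, by 0.70 (adjusted p = 0.0011), and both calls held whichever library was left out (−0.83 to −0.64 and −0.84 to −0.62). The other calls in single compounds did not. Leaving out 1 library raised the adjusted p for Cdkn1c to as much as 0.1 for loxapine against vehicle, 0.083 for sodium butyrate against vehicle and 0.13 against its slot reference.

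Plagl1, a zinc finger transcription factor expressed from the paternal copy, rose in the mean of both groups against vehicle and under both histone deacetylase inhibitors. It lies at chr10:13060504-13131694 on the plus strand and overlaps Gm27741 on the other. It read 7.32, 7.31 and 7.14 in vehicle. It read 7.98, 7.66 and 7.80 under diacylglycerol kinase inhibitor II, 7.74, 7.78 and 7.72 under meclizine and 7.70, 7.68 and 7.57 under cyproheptadine. These samples all lay above vehicle, and those of loxapine (7.48, 7.32 and 7.35) reached down to it. Plagl1 rose by 0.53 in Group B (SE 0.078, adjusted p = 8.1e-07) and by 0.26 in Group A (SE 0.073, adjusted p = 0.0054), and the difference of A minus B was −0.27 (SE 0.058, adjusted p = 0.00026). In Group A cyproheptadine rose by 0.40 (adjusted p = 0.00056) and pizotifen by 0.25 (adjusted p = 0.046), and loxapine read 0.13 (adjusted p = 0.34). Against slot references meclizine rose by 0.41 (adjusted p = 7.6e-05), while pizotifen read 0.18 and loxapine 0.02 (adjusted p = 0.12 and 0.87), and cyproheptadine was not set against such a reference. Without vehicle replicate 3 the Group A value was 0.20, with an adjusted p of 0.073. Plagl1 rose by 0.55 in trichostatin A (adjusted p = 4.2e-05) and by 0.43 in sodium butyrate (adjusted p = 0.00023) against vehicle, and by 0.48 and 0.33 against their slot references (adjusted p = 3.1e-05 and 0.0013). Under 4-deoxypyridoxine it was 0.23 below its slot reference (adjusted p = 0.045), a call lost with no minimum mean (adjusted p = 0.063) and without single libraries.

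Igf2, the growth factor of the H19 locus expressed from the paternal copy, was called against vehicle under trichostatin A and sodium butyrate and under none of the other 12 compounds. It lies at chr7:142650766-142666816 on the minus strand and overlaps Igf2os on the other. It read 3.24, 3.30 and 3.30 in vehicle, 4.01, 3.66 and 3.82 under trichostatin A and 3.62, 3.88 and 3.58 under sodium butyrate, with every sample of both compounds above vehicle. The rise was 0.55 (SE 0.079, adjusted p = 7.5e-06) and 0.41 (SE 0.079, adjusted p = 8.5e-05) against vehicle, and 0.51 and 0.31 against the slot references (adjusted p = 1.4e-06 and 0.0007). After quantile normalisation the sodium butyrate values were 0.26 and 0.20, and without its replicate 2 they were 0.31 and 0.21. Group A and Group B both read 0.08 (adjusted p = 0.34 and 0.4). Igf2 is a gene of low level here, and the deposited values of low genes spread less between samples than those of high genes, with a median SD of 0.0065 for genes with a mean under 0 and 0.14 for genes of at least 6.

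Peg3, a zinc finger protein gene expressed from the paternal copy, passed no test of a compound against vehicle. It lies at chr7:6703892-6730431 on the minus strand. It read 5.21, 5.06 and 5.25 in vehicle and 5.26, 5.40 and 5.61 under meclizine. Its Group A and Group B differences were 0.22 and 0.16 (adjusted p = 0.13 and 0.3). Against slot references it rose by 0.32 in meclizine (adjusted p = 0.034) and by 0.32 in loxapine (adjusted p = 0.044), and both calls were lost when single libraries were left out, with adjusted p up to 0.27 and 0.3. Meg3, a long noncoding RNA expressed from the maternal copy, stayed between 2.16 and 2.47 in its 16 condition means and was called in no compound.

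**Figure D4:**
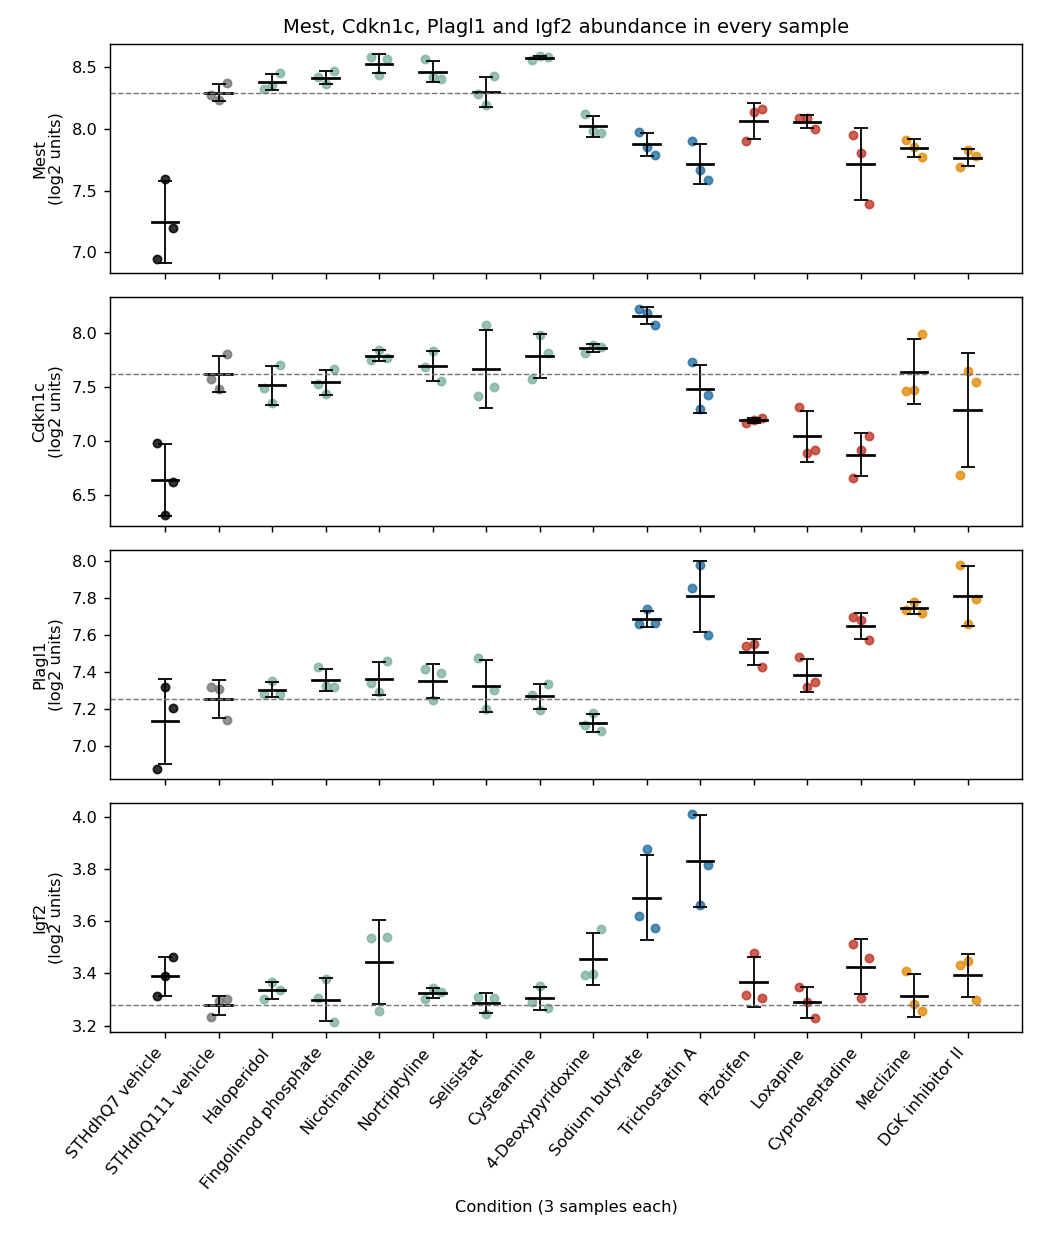
Normalised abundance (log2 units) of Mest, Cdkn1c, Plagl1 and Igf2 in each of 48 samples by condition, with the mean ± SD of 3 samples and the STHdhQ111 vehicle mean as a dashed line. Mest is below the line in all Group A and B conditions, Plagl1 is above it, and Igf2 is highest in trichostatin A (mean 3.83) and sodium butyrate (3.69).

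**Figure D5:**
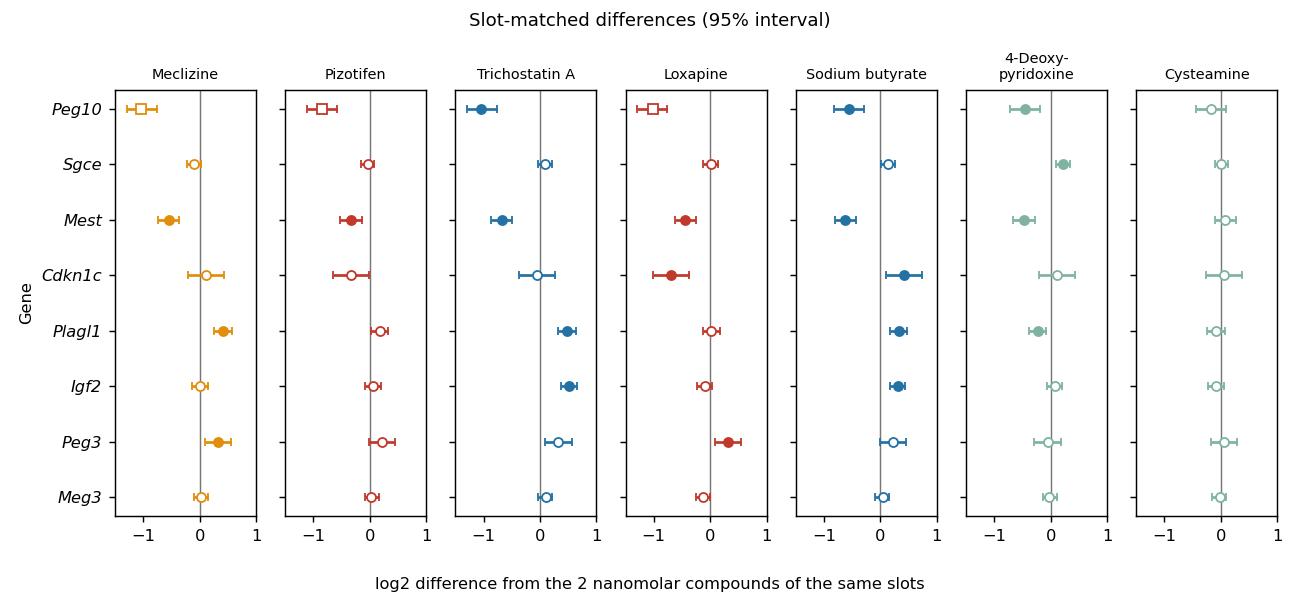
Log2 difference from the pair of nanomolar compounds of the same collection slots (horizontal, bars are 95% intervals) for 8 imprinted genes in 7 compounds. Filled circles have a limma adjusted p under 0.05, open circles do not, and open squares mark Peg10 in compounds where it was not tested. The bars of those squares are no test either. Mest is filled on the low side in 6 of 7 panels, and Peg10 is filled in trichostatin A (−1.04), sodium butyrate (−0.55) and 4-deoxypyridoxine (−0.46).

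Under trichostatin A 3 of 7 genes were called against vehicle and under sodium butyrate 5 of 7, with Mest lower and Plagl1 and Igf2 higher in both. The shares over all genes were 13.1% and 37.5%. Against slot references 17 of 49 tests passed, beside 17.8% over all genes (9.53% higher and 8.29% lower), and the counts for these compounds were 3 (14.4% of all genes) and 4 of 7 (30.8%). Loxapine called 3 of 7 there (22.8% of all genes), meclizine 3 (28.8%), pizotifen 1 (17.3%), 4-deoxypyridoxine 3 (10.6%) and cysteamine 0 (0.119%). The reference compounds are not untreated cells. Haloperidol and fingolimod phosphate called 0 and 8 of 13409 genes against vehicle (397 and 1404 at an unadjusted p under 0.05), and nicotinamide and nortriptyline called 1396 and 513, with none of the 7 imprinted genes among them.

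The cell lines differed in Mest and Cdkn1c. STHdhQ7 vehicle against STHdhQ111 vehicle called 2 of 7, both lower, beside 55.8% of all genes (29.2% higher and 26.6% lower), with a median of −0.12. Mest was 1.05 lower (SE 0.11, adjusted p = 1.4e-10), or 48.3% of STHdhQ111 vehicle, and Cdkn1c was 0.98 lower (SE 0.18, adjusted p = 1.6e-05), both lower in 3 of 3 samples. Peg10 was 0.75 lower, given without a test, and Sgce read −0.03 (95% interval −0.17 to 0.11, adjusted p = 0.72). Group A against vehicle gave −0.35 and −0.59 for Mest and Cdkn1c, and both comparisons share the vehicle samples. Against the 4 nanomolar compounds Mest read −1.20, Peg3 read 0.36 (adjusted p = 3.2e-15 and 0.003) and Cdkn1c stood at 50.1% of their mean (adjusted p = 1.3e-07), while the calls for Meg3 (−0.17) and Plagl1 (−0.21) were lost without STHdhQ7 vehicle replicate 1 (adjusted p = 0.054 and 0.46). Without the 3 libraries that stood apart Mest read −0.89 and Cdkn1c −1.15 against STHdhQ111 vehicle (adjusted p = 8.6e-09 and 8.9e-09) and Peg10 read −0.60. Of the genes around Peg10, 8 of 9 were called, Col1a2 among them at −2.69 (adjusted p = 5.8e-26). Of the progenitor markers, Nes stood at 10.95 in STHdhQ7 vehicle and 4.96 in STHdhQ111 vehicle, Sox2 at 8.91 and 4.81 and Pax6 at 5.41 and 2.81. In the same order Vim read 15.6 and 15.42, Dlx1 5.99 and 5.84, Dlx2 5.3 and 5.42, Ppp1r1b 2.05 and 1.93 and Foxp1 9.21 and 9.99, so not all of the list moved with Nes. Their part in the line difference was not tested.

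Compounds were also set against each other where their doses matched. Cyproheptadine and loxapine, both tricyclic and both at 10 µM, differed in Peg10 by −0.92, a value given without a test because the list was chosen on it. Mest was 0.34 lower and Plagl1 0.28 higher in cyproheptadine (both adjusted p = 0.044, over all genes, 10.5% called), while Cdkn1c did not pass (−0.17, 95% interval −0.54 to 0.21). With only the compared samples in the fit the adjusted p became 0.24 for Mest and 0.06 for Plagl1, and without cyproheptadine replicate 3 Mest read −0.18 (adjusted p = 0.37). Diacylglycerol kinase inhibitor II and meclizine, both at 10 µM, differed in Peg10 by −0.69, or by −0.40 without the first sample of the former, and none of the other 7 genes passed (8.11% of all genes called). The widest of those intervals, for Cdkn1c, ran from −0.72 to 0.03. In both pairs each compound was sampled once at each of the 3 collection times, but the compounds shared no slot except the first sample of diacylglycerol kinase inhibitor II and the third of meclizine. With day and time terms in the fit Mest read −0.34 and Plagl1 0.27 for cyproheptadine minus loxapine (adjusted p = 0.054 and 0.056). Pizotifen, at 5 µM, was compared with none of them.

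Across the 16 condition means, with collection day removed, Peg10 correlated with Mest at r = 0.76, Cdkn1c at 0.61, Meg3 at 0.48 and Sgce at 0.23, and inversely with Peg3 at −0.78, Plagl1 at −0.67 and Igf2 at −0.26. The points share the vehicle and the collection slots, so these values only describe the order of conditions. Of 2627 genes that varied enough, the most alike were Hopx (r = 0.954), a small homeodomain protein, Sertad4 (0.945), 9930012K11Rik (0.939), Gsn (0.935), the actin-severing protein gelsolin, and Tcf7l1 (0.926), a transcription factor of the Wnt pathway. The most opposite were Asns (−0.928), asparagine synthetase, Gpt2 (−0.920), a mitochondrial alanine transaminase, and Aldh1l2 (−0.913), a mitochondrial enzyme of folate metabolism. Genes under the minimum SD of 0.2, Sgce among them, and the untested H19 and Dlk1 could not enter this ranking. The absence of listed genes from it therefore says nothing about those genes.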

How the data were processed

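Poly(A) RNA from 48 samples was sequenced as single-end 50-base reads with a directional kit. Adapters were removed by the authors (Trimmomatic 0.36), RSEM gave gene abundances on the GRCm38.p5 transcriptome, and DESeq2 is also named in the submitters' processing notes. The deposited values are normalised and on a log2 scale, and the transformation is not given in the sources used here. No counts were used, so depth is unknown and no counting interval is given. Rows with a symbol and a mean of at least 1 were tested (13409 genes), with limma 3.58.1 in R 4.3.3, 1 term for each of 16 conditions and 1 for collection day, 30 residual degrees of freedom, a variance trend and Benjamini-Hochberg adjustment within each comparison; a call is an adjusted p under 0.05, two-sided. The model was tested on simulated data. The named genes are all 10 listed members, up to 4 called genes of largest change in each further list, and the 5 most and 3 least correlated with Peg10 among genes with an SD of condition means of at least 0.2. Members, lists and reference compounds were chosen with earlier results of these data known. Replicate numbers follow collection day except for the first samples of cyproheptadine and diacylglycerol kinase inhibitor II. The labels' day is a shared day, yet same-day samples of different conditions did not deviate together from their condition means (mean correlation −0.055). The value for other days, 0.0279, is no separate comparison, because deviations cancel within a condition and so largely fix it. Positions are GENCODE M21 on GRCm38 and promoters are from RefSeq. Figures were drawn with matplotlib 3.10.9.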

Additional observations from a re-analysis of the deposited data

How the results depend on the processing

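The counts of imprinted genes called stayed within 1.5 times their value under every alternative run: from 2 to 3 (2 as reported) for STHdhQ7 vehicle, 3 to 3 (3) for Group A, 2 to 3 (2) for Group B, 2 to 2 (2) for Group A against Group B, 16 to 24 (18) for the compounds against vehicle and 13 to 23 (17) for the slot-matched comparisons. Leaving out 1 library at a time gave 2 to 2, 2 to 4, 2 to 3, 2 to 3, 16 to 20 and 14 to 18. With the replicate number as a block in place of day the counts were 2, 3, 2, 2, 19 and 18, and this replicate block ended no single call. Alternatives were no day term, day with time, no minimum mean, a minimum of 6, all rows, no trend, robust moderation, median centring, quantile normalisation, a fit on the compared samples only, and, chosen after seeing the data, a fit without the 3 libraries farthest from their condition. Of 55 called gene results 46 held in every alternative that tested the gene, and 40 also with any 1 library left out. At the minimum of 6, Igf2, Peg3 and Meg3 (means 3.402, 5.225 and 2.3) were not tested. Their calls left the counts under that setting and could not be lost there. Calls lost under alternatives were Plagl1 in pizotifen against vehicle, Peg3 in meclizine and loxapine, Cdkn1c in sodium butyrate and Plagl1 in 4-deoxypyridoxine against slot references, Mest and Plagl1 between cyproheptadine and loxapine, and, without the 3 libraries, Meg3 (−0.15) and Plagl1 (−0.07) in STHdhQ7 vehicle against the 4 nanomolar compounds. Only values of Sgce near 0 changed sign: for STHdhQ7 vehicle 0.05 without the 3 libraries and −0.11 to 0.06 with 1 library left out, and for Group B 0.01 with the compared samples only, 0.00 without the 3 libraries and −0.03 to 0.01 with 1 library left out. Untested Peg10 values near 0 also changed sign, and selisistat read 0.12 without the 3 libraries and 0.14 without its replicate 2, in place of −0.08. The cause was not tested. A pseudocount was not varied because the values are already log2. Values give no depth, so H19 and Dlk1 could not be followed.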

Other observations

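A further 61 imprinted genes of the mouse were listed, of which 53 were in the table and 35 passed the minimum mean. Group A called 12 of the 35, or 34.3% beside 32.8% of all genes, with 5 higher and 7 lower, and Group B called 13, or 37.1% beside 41%, with 6 higher and 7 lower, and the median was −0.01 in both, beside 0.001 and −0.004 over all genes. In Group A, Kcnq1ot1, an antisense RNA of the Kcnq1 locus, rose by 0.58 (limma adjusted p = 3.6e-06), Impact, a regulator of the translation kinase GCN2, rose by 0.43 (adjusted p = 4.8e-05) and Ago2, an Argonaute protein, fell by 0.29 (adjusted p = 0.00011). Ago2 was also called lower against this vehicle under nicotinamide (−0.35), nortriptyline (−0.30) and cysteamine (−0.31), and Kcnq1ot1 was 0.46 higher under nortriptyline. Against slot references Ago2 read −0.08 in pizotifen and 0.04 in loxapine, neither called, and Kcnq1ot1 read 0.30 (adjusted p = 0.021) and 0.15 (adjusted p = 0.25). In Group B, Impact rose by 0.64 (adjusted p = 7.8e-08), Atp10a, a phospholipid flippase, fell by 0.58 (adjusted p = 2.2e-08) and the RNA Peg13 fell by 0.32 (adjusted p = 0.00011). Reads of Kcnq1ot1 and of its sense partner cannot be told apart without the strand setting. Sodium butyrate against vehicle called 16, or 45.7% beside 37.5% of all genes, with 8 in each direction, among them Cd81, a tetraspanin, at 0.52 (adjusted p = 4.3e-08) and Grb10, a growth factor receptor adaptor, at −0.45 (adjusted p = 4.5e-07). Trichostatin A called 8, or 22.9% beside 13.1%, with 4 in each direction, and Grb10 was again lower, by 0.37 (adjusted p = 4.8e-05). In STHdhQ7 vehicle 20 were called, or 57.1% beside 55.8%, and Ndn, a growth suppressor of the Snrpn cluster, was 2.57 higher (adjusted p = 1.6e-19).

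Of 12 genes that set, keep or erase the methylation of imprints, 11 passed the minimum mean. Group A called 5, all lower, where 17.2% of all genes were called lower, with a median of −0.11 beside 0.001 over all genes, and Group B called 5, all lower, where 21.2% were, with a median of −0.12 beside −0.004. The median against this vehicle was also −0.11 in cysteamine and −0.09 in nicotinamide and fingolimod phosphate, with 1, 2 and 0 called. The shares over all genes there were 7.83%, 10.4% and 0.0597%. Against slot references meclizine called 1 of the 11 (9.09%, beside 28.8% of all genes). Pizotifen and loxapine called 2 each (18.2%, beside 17.3% and 22.8% of all genes). Tet1, which oxidises methylated cytosine, fell by 0.44 in Group A (limma adjusted p = 3.2e-05) and 0.29 in Group B (adjusted p = 0.0047), and Dnmt1, the maintenance methyltransferase, fell by 0.27 in Group B (adjusted p = 1.9e-05) together with its partner Uhrf1, by 0.26 (adjusted p = 0.00012). In STHdhQ7 vehicle 8 were called, where 55.8% of all genes were, 6 higher and 2 lower, with Tet1 0.81 higher (adjusted p = 3.7e-09).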
